A study of Mus musculus with 16 samples.

Results

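The matrix metalloproteinases (MMPs), the ADAMTS proteases, the ADAMTS-like proteins and the tissue inhibitors of metalloproteinases (TIMPs) were followed in mouse pancreatic stellate cells and in sympathetic ganglion explants that shared medium across an insert. The members are the protein-coding genes named Mmp, Adamts, Adamtsl or Timp with a number and at most 1 letter. There are 51 of them among 21684 protein-coding genes, and 56941 genes in all, in each expression table: 23 Mmp, 19 Adamts, 5 Adamtsl and 4 Timp genes. Values and levels played no part in their choice, but the set was chosen with earlier results of these libraries known. Bulk RNA-seq libraries numbered 16. PSC (n = 3) and PSC+SCG (n = 3) were mPSC1 cells, an immortalized mouse pancreatic stellate cell line that is a single line, grown without and with superior cervical ganglion (SCG) explants. SCG (n = 3), SCG+MEF (n = 3) and SCG+PSC (n = 4) were the explants grown alone, with NIH 3T3 fibroblasts (labelled MEF, also a single line) or with mPSC1 cells. In each coculture 10000 cells sat on the insert over 8 to 13 explants for about 70 h, so the cell types did not touch. The explants, in medium with serum and nerve growth factor in every nerve group, came from C57BL/6J pups of postnatal days 1 to 4, were loosened with collagenase in every nerve group, and were kept as tissue pieces that still hold glia, fibroblasts, macrophages and vessel cells beside the neurons. The inserts of SCG+MEF were not sequenced.

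MMPs are secreted or membrane-bound zinc proteases made as inactive precursors. Between them they cut fibrillar collagen (collagenases), denatured and basement-membrane collagen (gelatinases) and proteoglycans, laminin and fibronectin (stromelysins), and membrane-type MMPs activate others at the cell surface. ADAMTS proteases are secreted, and cut large proteoglycans such as versican and aggrecan or trim the ends of procollagens, while ADAMTS-like proteins share their accessory domains and have no protease domain. TIMPs block MMPs and, for TIMP3, several ADAMTS proteases as well. Stellate cells and fibroblasts are a main source of many of these in the pancreas, and in injured nerve the proteases open matrix ahead of growing axons.

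Values are normalized counts, reads per gene divided by the library's size factor, and differences are log2 fold changes of normalized count + 1 with standard errors. The threshold needed both an adjusted p no greater than 0.05 and a change of 0.5 or more on the log2 scale, up or down. Libraries of the same number deviated together in both tables, so fits were run without the replicate number and with the number as a block. Counts of calls are given from both fits. Where a gene has only a limma adjusted p with the block, it did not pass in limma without the block. Standard errors are those of the fit without the block unless said otherwise. The labels do not say whether the libraries of a group came from separate animals or cultures, and the study's model held an experimental batch, given as dates, that they tie to no library. The p-values measure the spread between these libraries, which may be technical in part. Limma draws each gene's spread toward that of other genes of like level. Blocked p-values can thus be far smaller than a gene's own pairs would give. The PSC and nerve tables were normalized separately, so levels of PSC and nerve libraries set beside each other are approximate. Recovered depth was between 31900689 and 41632381 reads on genes for 14 of the libraries. In bulk RNA fewer cells of a type and less RNA per cell cannot be told apart.

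Marker genes chosen for the cell types were measured where the labels place those cells. The 8 fibroblast markers summed to 398022 to 684522 normalized counts in the mPSC1 libraries, where the 10 sympathetic neuron markers summed to 71.3 to 109.9. In the nerve libraries the fibroblast markers summed to 208790 to 406218. The 6 markers of stellate cells and contractile fibroblasts summed to 91531 to 180272 in mPSC1 libraries and 246474 to 340524 in nerve libraries. Neither list is thus particular to mPSC1 cells. The same neuron markers summed to 120269 to 255980.0 in the nerve libraries. Macrophage markers summed to 8343 to 13195 there. The neutrophil markers S100a8, S100a9, Ly6g, Elane and Mpo stood between 0 and 4.05 in every nerve library.

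Of the 51 members, 42 in the PSC table and 45 in the nerve table had normalized counts that summed to at least 10 and were tested. The 9 left out in mPSC1 cells were Mmp7, Mmp8, Mmp20, Mmp21, Mmp24, Mmp1a, Adamts18, Adamts19 and Timp4, none above 2.97 normalized counts, about 3 reads, in any library. The 6 left out in explants were Mmp7, Mmp1a, Mmp1b, Mmp20, Mmp21 and Adamts13, none above 3.03. Mmp1a was at 0 in all 16 libraries, a count that allows up to 3 reads in each, or 2.54 to 3.41 normalized counts. By mean normalized count, 21 members reached 1000 in each table.

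Levels of different genes were compared per kilobase of the canonical transcript, and the same 5 genes led both tables in a different order. In mPSC1 cells Timp2 stood first at a mean of 10552 normalized counts per kb, then Timp1 at 4917, Mmp14 at 3481, Timp3 at 3218 and Mmp2 at 2579. In the explants Mmp14 came first at 9742 per kb and Mmp2 second at 8441, followed by Timp2 at 5193, Timp3 at 3766 and Timp1 at 3580.2. Mmp14 encodes the membrane-type collagenase MT1-MMP, which with TIMP2 activates the gelatinase that Mmp2 encodes. Over the mPSC1 libraries only Timp2 stood clear of the next gene, and the ranges of Timp1, Mmp14, Timp3 and Mmp2 each overlapped with that of their neighbour. Over the nerve libraries Mmp14 and Mmp2 overlapped with each other and lay above the TIMPs, among which Timp1 overlapped with Timp3 and Timp2. Summed per kb, the TIMPs stood 1.11 to 2.66 times as high as all MMPs in every mPSC1 library and 0.394 to 0.759 times as high in every nerve library. Neither ratio separated a coculture from its control, since PSC spanned 1.57 to 2.57 and PSC+SCG 1.11 to 2.66.

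**Figure D1:**
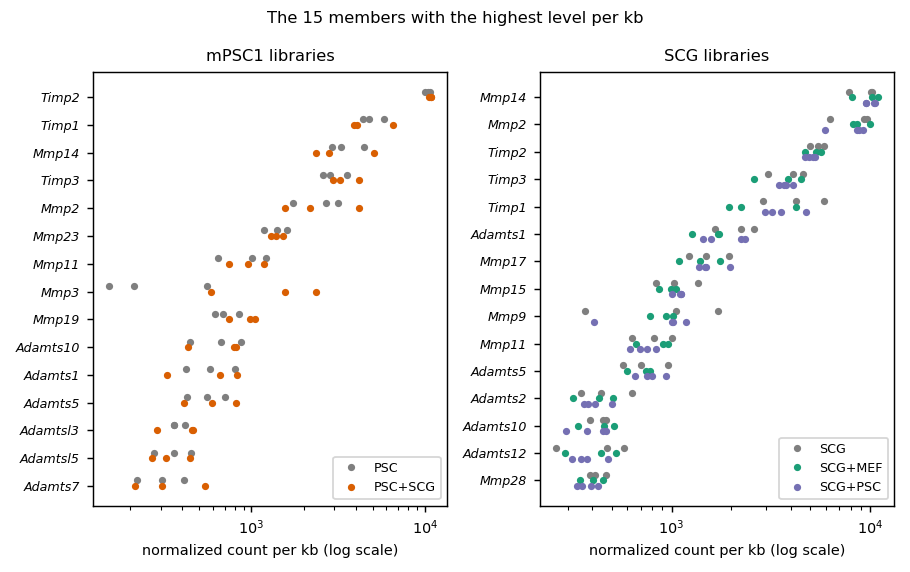
Normalized count per kb of the canonical transcript (x axis, log scale) for the 15 members with the highest level in the mPSC1 libraries (left) and the explant libraries (right), 1 point a library, coloured by group. Timp2 leads in mPSC1 cells and Mmp14 in the explants, and Mmp3 is spread wider over the mPSC1 libraries than its neighbours.

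Part of the changes below fell in a run of secreted MMP genes that lie side by side. Others, in Adamts9, Adamts14, Adamts16 and Adamtsl1, lay outside it. On chromosome 9 (GRCm39, 7272514 to 7699587, 427 kb) sit 10 members in the order Mmp13, Mmp12, Mmp1b, Mmp3, Mmp1a, Mmp10, Mmp8, Mmp27, Mmp20 and Mmp7. The 120 bases before the annotated start of 5 of them are shown, since these 5 hold the largest fold changes of MMP genes with counts well above 3 reads. Capitals mark the AP-1 site TGANTCA and the TATA box TATAAA on either strand. All 5 are on the + strand, at chr9:7272394-7272513 for Mmp13, chr9:7347254-7347373 for Mmp12, chr9:7445702-7445821 for Mmp3, chr9:7502233-7502352 for Mmp10 and chr9:7558337-7558456 for Mmp8.
Mmp13: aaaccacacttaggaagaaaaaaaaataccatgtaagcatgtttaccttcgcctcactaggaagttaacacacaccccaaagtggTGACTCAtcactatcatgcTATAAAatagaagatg
Mmp12: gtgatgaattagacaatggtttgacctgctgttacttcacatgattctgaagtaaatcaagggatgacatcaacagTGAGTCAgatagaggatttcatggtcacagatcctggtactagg
Mmp3: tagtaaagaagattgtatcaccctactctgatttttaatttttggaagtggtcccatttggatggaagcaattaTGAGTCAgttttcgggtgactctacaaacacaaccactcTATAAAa
Mmp10: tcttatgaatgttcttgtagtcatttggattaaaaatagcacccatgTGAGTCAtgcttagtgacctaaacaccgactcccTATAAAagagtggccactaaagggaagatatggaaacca
Mmp8: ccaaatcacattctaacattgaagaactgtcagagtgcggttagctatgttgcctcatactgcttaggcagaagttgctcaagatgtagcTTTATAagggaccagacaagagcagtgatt

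The AP-1 letters begin 35 bases before the start in Mmp13, 44 in Mmp12, 46 in Mmp3 and 73 in Mmp10, and are not in the window of Mmp8. Mmp8 holds TATAAA on the other strand only, 30 bases before the start, and Mmp12 holds it 5 bases after its annotated start, outside the bases shown. AP-1 is the Fos and Jun dimer. From 250 bases before to 50 after the start, TGANTCA was in 8 of the 10 genes of the run (all but Mmp8 and Mmp27), in 12 of the 51 members and in 7.14% of 21770 protein-coding promoters. TATAAA was in 9 of the 10, in 17 of the 51 and in 13.2% of promoters. The cyclic AMP response element TGACGTCA was in no member and in 2.44% of promoters. These are matches of letters and not measured binding.

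In mPSC1 cells the question was what the explants changed. Without the block no member passed when PSC+SCG was set against PSC, and the background was 0.0% of the 14541 protein-coding genes tested. At an unadjusted p under 0.05 by limma, 6 of the 42 members were higher (Mmp3, Mmp10, Adamts9, Adamtsl1, Mmp1b and Adamts4) and 0 lower, against 0.997% of all genes higher. With the replicate block 5 members rose, Mmp3, Mmp10, Mmp13, Adamts9 and Adamtsl1, and 0 fell. The background was 0.447% of genes higher and 0.0756% lower. In 8 members the lowest PSC+SCG library lay above the highest PSC library, against 2.9% of genes. They were Adamts3, Adamts4, Adamts9, Adamtsl1, Mmp1b, Mmp3, Mmp10 and Mmp25. None lay wholly below, against 1.47% of genes. Mmp1b and Mmp25 had at most 4.94 normalized counts, so their separation rests on a few reads. For Mmp25 the nearest libraries, PSC replicate 1 and PSC+SCG replicate 1, differed by their size factors alone, with a library's smallest value taken as 1 read. Higher in every same-numbered pair were 15 members, against 13.6% of genes, and lower in every pair 2 (Adamtsl2 and Adamts20), against 9.94%. The median log2 fold change of the members was 0.11 and that of all genes 0.01. Several of these genes are in matrix gene lists that the study ranked on these same libraries, so those lists are not independent evidence of direction.

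**Figure D2:**
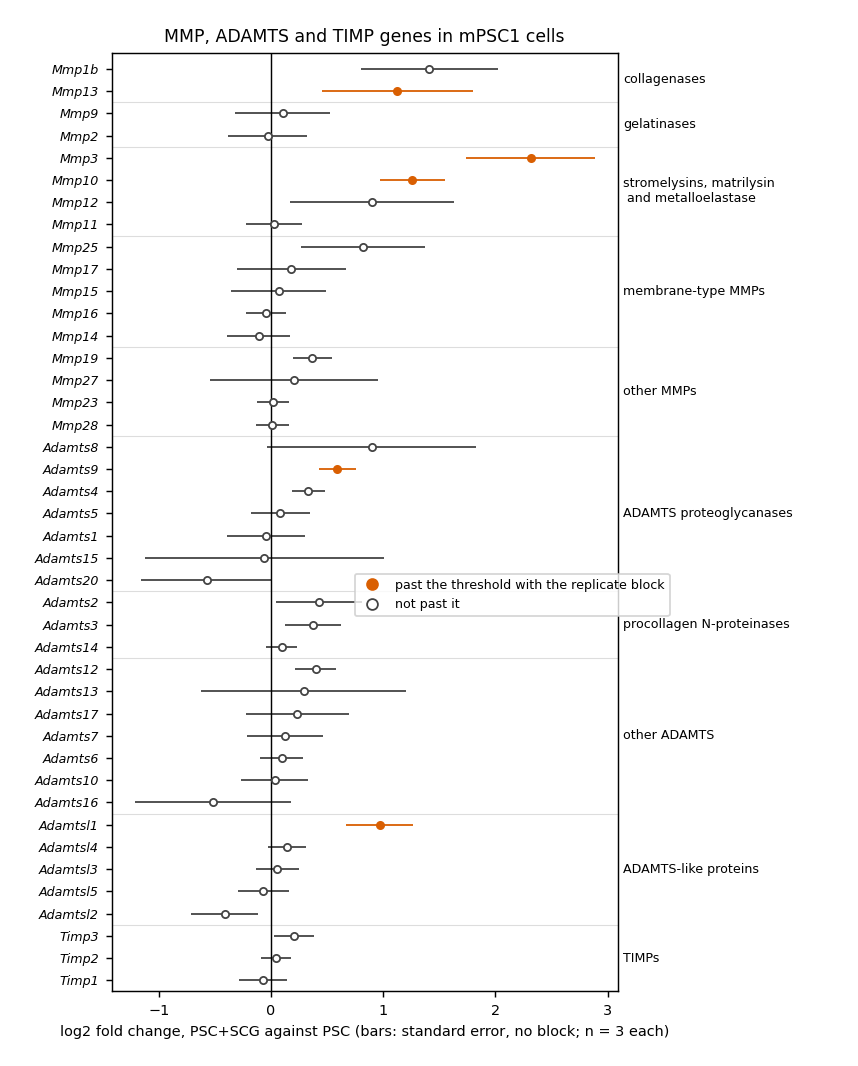
Log2 fold change of PSC+SCG against PSC (x axis) for the 42 members tested, by role, with the standard error of the fit without the block as bars (n = 3 each). Mmp3 lies farthest to the right at 2.31, and the 5 filled points are the members past the threshold with the replicate block.

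Mmp3 encodes stromelysin 1, which cuts proteoglycans, laminin and fibronectin and activates other MMPs. Its normalized counts were 1004, 377 and 271 in PSC replicates 1 to 3 and 2828, 4228 and 1056 in PSC+SCG replicates 1 to 3. The groups did not overlap, but the lowest PSC+SCG library was close to the highest PSC library, and replicate 3 was the lowest of both groups. The means were 550.4 ± 396 and 2704 ± 1589.6 (SD, n = 3 each). The difference was 2.31 ± 0.57 (SE) on the log2 scale, 4.97-fold, with a limma adjusted p of 0.9999 without the block and 1.36e-06 with it. Within pairs it was 1.49, 3.48 and 1.96. The blocked p draws on the spread of other genes as well as on these 3 pairs.

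Mmp10 encodes stromelysin 2, with substrates much like those of stromelysin 1. Counts were 71.9, 44.3 and 47.2 in PSC and 109, 143 and 137 in PSC+SCG. All 3 cocultured libraries were above all 3 controls. The log2 fold change was 1.26 ± 0.29 (limma adjusted p = 0.9999, and 0.0198 with the block). Mmp13, the main collagenase of mouse connective tissue, stood at 123, 97.6 and 23.1 in PSC and at 196, 235 and 64.9 in PSC+SCG. It was higher within each pair, while the groups overlapped because replicate 3 was low in both. Its log2 fold change was 1.13, with a standard error of 0.23 with the block (limma adjusted p = 0.0223) and a larger one, as 1.13 ± 0.68, without it (limma adjusted p = 0.9999).

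Adamts9, a versican protease, had counts of 2367, 1687 and 2095 in PSC and 3358, 2619 and 3249.8 in PSC+SCG. The groups did not overlap. Its log2 fold change of 0.59 ± 0.16 (limma adjusted p = 0.9999, and 0.00474 with the block) was much the same in each pair, at 0.50, 0.63 and 0.63. Adamtsl1 encodes punctin, a matrix glycoprotein without protease activity. Its counts were 236, 159 and 122 in PSC and 332, 429 and 244 in PSC+SCG, groups that were just apart. It was higher by 0.97 ± 0.30 on the log2 scale (limma adjusted p = 0.9999, and 0.0123 with the block).

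**Figure D3:**
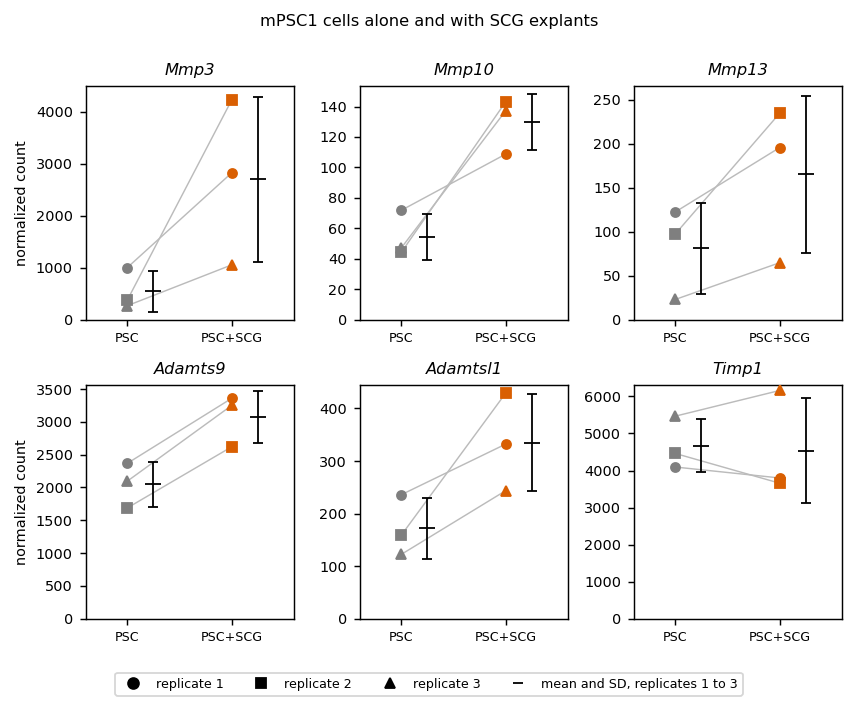
Normalized counts (y axis, from 0) in each library of PSC (grey) and PSC+SCG (orange) for the 5 members past the threshold with the block and for Timp1. Grey lines join same-numbered libraries and black marks give mean and SD (n = 3). Every line goes up for the 5 members, and those of Timp1 go both ways.

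These calls rest on the pairing and on replicate 2. With the block and without replicate 1 there were 4 (Mmp13 was lost, at an adjusted p of 0.107 by limma), and without replicate 3 there were 5. Of all protein-coding genes, 29, 35 and 144 passed higher and 9, 8 and 33 lower without replicates 1, 2 and 3. Without replicate 2 only Mmp3 was past the threshold, at a log2 fold change of 1.73. The limma adjusted p of the other 4 was then 0.0604 for Adamts9, 0.206 for Mmp10, 0.239 for Mmp13 and 0.287 for Adamtsl1.

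The other members of each role showed smaller or less even values. Among the collagenases Mmp1b stood at 0 to 4.94 normalized counts, near 3 reads. The gelatinases Mmp2 and Mmp9 had log2 fold changes of -0.03 and 0.10. Of the 5 stromelysins, matrilysin and metalloelastase, 4 were tested and 2 rose with the block. The remaining members tested were Mmp11, at 0.03, and Mmp12, at 1.06 to 9.89 normalized counts. Of the membrane-type MMPs 0 of 5 tested passed, with a range from -0.11 (Mmp14) to 0.82 (Mmp25, at 0.963 to 4.93 normalized counts). The other MMPs ranged from 0.01 (Mmp28) to 0.37 (Mmp19), and 0 of 4 tested passed.

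Among the ADAMTS proteoglycanases only Adamts9 of 7 passed with the block. Adamts4, an aggrecanase, was at 830.3, 786 and 701 in PSC and 903, 1115 and 909.5 in PSC+SCG, groups that were apart by 0.33 ± 0.14 on the log2 scale, less than the threshold asks. The procollagen N-proteinases Adamts2, Adamts3 and Adamts14, which trim fibrillar procollagens, had log2 fold changes of 0.43, 0.37 and 0.10, and none passed. Adamts2 was at 3145, 1838 and 1211 in PSC and 3375, 3272 and 1547 in PSC+SCG, higher in every pair but with groups that overlapped (limma adjusted p = 0.122 with the block). Adamts12, a protease of cartilage oligomeric matrix protein, was at 0.40 ± 0.18 (limma adjusted p = 0.143 with the block). Adamtsl2, which binds fibrillin and the latent TGF-beta complex, was lower in each pair, with counts of 59.2, 74.9 and 52.0 in PSC and 44.5, 53.3 and 40.4 in PSC+SCG, at -0.41 ± 0.30 (limma adjusted p = 0.824 with the block).

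The inhibitors did not pass the test in mPSC1 cells. Timp1 was at 4094, 4460.3 and 5469 in PSC and 3799, 3657 and 6162 in PSC+SCG, groups that overlapped. Its log2 fold change was -0.07, with a 95% interval from -0.29 to 0.14 with the block. Timp2, at 37609 to 40643 over the 6 libraries, was at 0.04, with an interval from -0.19 to 0.27. Part of its exon bases also lie in Cep295nl. Timp3, at 16860.3, 12179 and 13309.6 in PSC and 19706, 13867 and 15278 in PSC+SCG, was higher by 0.22, 0.19 and 0.20 in the 3 pairs (limma adjusted p = 0.607 with the block). Timp4 had at most 1.14 normalized counts.

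Partners of these proteases were counted from lists. Of 20 activators, other inhibitors and receptors (among them Furin, which cuts MMP precursors, and Plau and Plat, the plasminogen activators) 16 were tested and 0 passed with or without the block, with a median log2 fold change of 0.07. Of 14 substrates 12 were tested and 1, the laminin chain gene Lama4, rose with the block, from 1588, 818 and 642 in PSC to 2161, 1813 and 1139 in PSC+SCG. Its log2 fold change was 0.81 ± 0.34 (limma adjusted p = 0.9999 without the block and 0.0016 with it). No marker tested passed in mPSC1 cells in either fit. Tested were 0 of 6 neutrophil, 5 of 12 macrophage and 5 of 10 neuron markers, so these lists had little or no part in that result. The summed markers of each of the 8 cell type lists overlapped between the groups.

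In the explants the questions were what mPSC1 cells and NIH 3T3 cells changed, and where those changes differed. The comparisons share libraries, and SCG serves as control for both cocultures. Without the block 1 of the 45 members, Mmp8, passed in SCG+PSC against SCG, where the background was 0.0189% of the 15908 protein-coding genes tested. With the block 5 rose (Mmp8, Mmp12, Adamts14, Adamts16 and Adamts9) against 1.76% of genes, and 0 fell against 0.182%. The same 5 were the members whose lowest SCG+PSC library of replicates 1 to 3 lay above the highest SCG library, against 4.33% of genes, and none lay wholly below, against 2.78%. The median log2 fold change was 0.01 for the members and 0.01 for all genes. In SCG+MEF against SCG limma called 0 of 45 without the block, against 0.0189%, and 4 had an unadjusted p under 0.05, against 2.44% of genes. On recovered reads DESeq2 called 1 (Mmp8) against 0.132% of genes, and edgeR 0 against 0.0188%. With the block limma called 1, Mmp8, higher (0.17% of genes) and 0 lower (0.0691%). Groups were apart upward in 4 members (Mmp8, Adamts15, Adamts16 and Timp4), against 2.95% of genes, and downward in 0, against 2.04%. For Timp4 the nearest libraries, SCG+MEF replicate 1 and SCG replicate 1, held 1 read each and differed by their size factors alone. The median was 0.01 for the members and 0.03 for all genes.

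Mmp8 encodes the collagenase best known from neutrophil granules. Its normalized counts were 15.2, 8.56 and 11.3 in SCG, 62.9, 74.5 and 55.8 in SCG+MEF, and 155, 69.9, 114 and 109.9 in SCG+PSC replicates 1 to 4. Both cocultures lay above SCG in every library, and they overlapped with each other through SCG+PSC replicate 2. Against SCG the log2 fold change was 3.13 ± 0.35 in SCG+PSC (8.77-fold, limma adjusted p = 0.0255, and 0.00129 with the block) and 2.39 ± 0.35 in SCG+MEF (5.24-fold, limma adjusted p = 0.142, and 0.00885 with the block). The blocked call in SCG+MEF was lost without replicate 1 (limma adjusted p = 0.0593) and without replicate 3 (limma adjusted p = 0.097). Between the cocultures the difference was 0.74, with a 95% interval, not adjusted for the genes tested, from 0.08 to 1.41 with the block, and it did not pass (limma adjusted p = 0.355).

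Mmp8 was higher in SCG+PSC than in SCG in every fit run, but its call did not hold in all. With all 4 SCG+PSC libraries limma's adjusted p was 0.0032. Leaving out 1 library moved the log2 fold change between 2.87 and 3.44 and the limma adjusted p between 0.03 and 0.223, and the call held only without SCG+PSC replicate 2. With only SCG and SCG+PSC in the fit the limma adjusted p was 0.324. On recovered reads edgeR gave an adjusted p of 0.0281 and DESeq2 1.22e-11. The defining neutrophil markers were at or near 0 in all nerve libraries, and Csf3r, the last of that list, was at 78.9 to 118 in SCG and 36.3 to 69.1 in SCG+PSC. In the mPSC1 libraries Mmp8 had at most 2.97 normalized counts.

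Mmp12 encodes the elastase of macrophages. It stood at 1071, 856 and 281 in SCG, 1361, 1366 and 625 in SCG+MEF, and 1835, 1741, 1779 and 2366 in SCG+PSC. The SCG+PSC libraries were above all others, while replicate 3 was the lowest of SCG and of SCG+MEF. In SCG+PSC against SCG it rose by 1.49 ± 0.26 on the log2 scale with the block (SE of that fit, limma adjusted p = 1 without it and 0.0156 with it), and by 0.78, 1.02 and 2.66 in the 3 pairs. In SCG+MEF against SCG it was at 0.72 ± 0.45 (limma adjusted p = 0.524 with the block). Blocked DESeq2 on recovered reads gave 0.67 there (adjusted p = 0.919). The study, whose DESeq2 model held its batch, lists Mmp12 among the genes raised in explants by both cell lines. The 12 macrophage markers summed to 8343 to 13195 in SCG, 8782 to 12916 in SCG+MEF and 9146 to 11394 in SCG+PSC. Their median log2 fold change in SCG+PSC against SCG was -0.08, and of the 12 only Mrc1, the mannose receptor, rose with the block, by 1.15 on the log2 scale (limma adjusted p = 0.00999). In mPSC1 libraries Mmp12 had at most 9.89 normalized counts.

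Adamts14, an N-proteinase of fibrillar procollagens, was at 553, 569 and 455 in SCG, 619, 559 and 489 in SCG+MEF, and 944, 999.5, 713 and 593 in SCG+PSC. SCG+PSC replicate 4 lay within the range of SCG+MEF, and the other 3 were above every other library. With the block it rose by 0.74 ± 0.10 against SCG (SE of that fit, limma adjusted p = 0.0062) and was higher by 0.66 ± 0.10 than in SCG+MEF (limma adjusted p = 0.0219). The latter call was lost whichever replicate number was left out, at limma adjusted p of 0.204, 0.0611 and 0.0777 without numbers 1, 2 and 3. With all 4 libraries and no block the value against SCG was 0.60 (limma adjusted p = 0.816). In mPSC1 cells Adamts14 stood at 1425 to 1788 normalized counts.

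Adamts16, a secreted protease with fibronectin among its substrates, was at 89.1, 95.1 and 98.4 in SCG, 143, 131 and 222 in SCG+MEF, and 166, 155, 226 and 189 in SCG+PSC. Every cocultured library was above every SCG library and the cocultures overlapped. The difference was 0.93 ± 0.24 with mPSC1 cells (limma adjusted p = 0.0221 with the block) and 0.77 ± 0.24 with NIH 3T3 cells (limma adjusted p = 0.166 with the block). Between the cocultures it was 0.16, with a 95% interval from -0.22 to 0.54 with the block. In mPSC1 libraries Adamts16 stood at 2.13 to 20.3.

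Adamts9 was at 521, 795 and 689 in SCG, 706, 865 and 924 in SCG+MEF, and 898, 916, 1036 and 1085 in SCG+PSC. SCG and SCG+PSC did not overlap, and SCG+MEF reached into both. It rose with the block by 0.53 ± 0.11 with mPSC1 cells (SE of that fit, limma adjusted p = 0.0368), and with NIH 3T3 cells it was at 0.33 ± 0.17 (limma adjusted p = 0.481 with the block). It was the one member past the threshold with the block both in cocultured mPSC1 cells and in the explants cocultured with them.

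**Figure D4:**
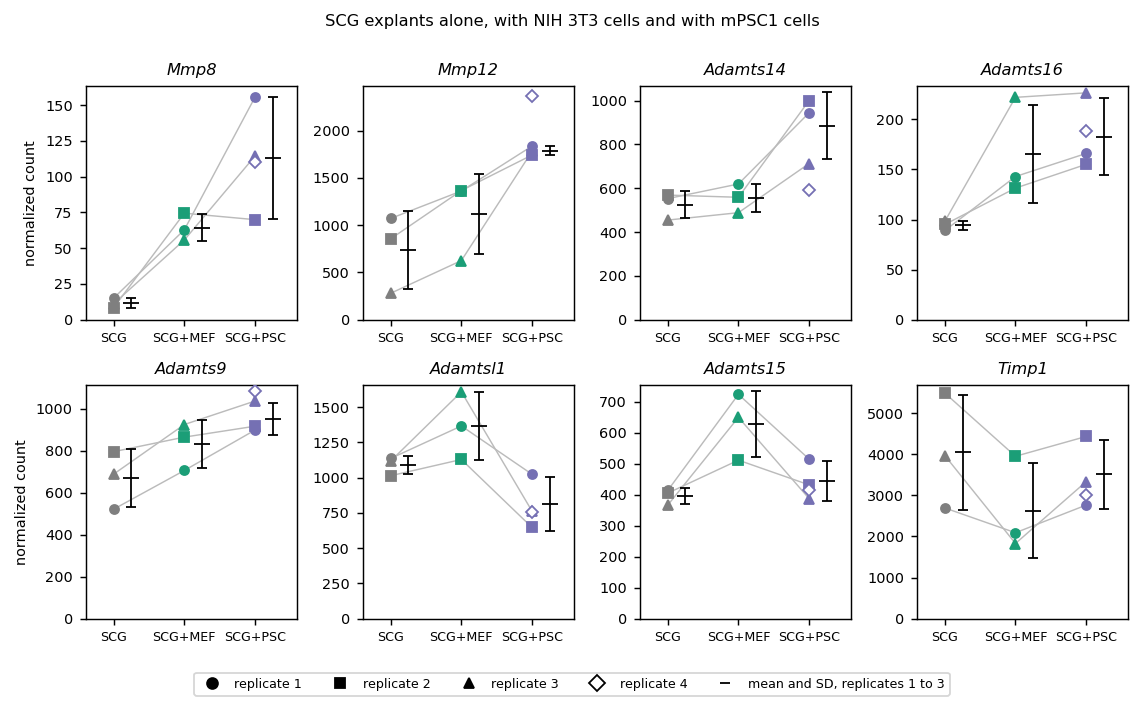
Normalized counts (y axis, from 0) in each library of SCG (grey), SCG+MEF (green) and SCG+PSC (violet) for 8 members. Lines join same-numbered libraries, open diamonds are SCG+PSC replicate 4 and black marks are mean and SD of replicates 1 to 3. Mmp8 and Adamts16 are higher in both cocultures, Adamts14 in SCG+PSC replicates 1 to 3, and the 3 SCG+PSC libraries of Adamtsl1 in the fit lie below all 3 of SCG+MEF.

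With the block, SCG+PSC against SCG had 2 members past the threshold without replicate 1 (Mmp8 and Mmp12), 5 without replicate 2 and 3 without replicate 3 (Mmp8, Mmp12 and Adamts14). Of all protein-coding genes, 44, 286 and 29 passed higher and 10, 56 and 5 lower in the same order. On recovered reads with the block edgeR and DESeq2 each called the same 5 genes higher, against 1.84% and 2.25% of genes. Proliferation markers moved with SCG+PSC: Mki67, Top2a, Cdk1 and Ccnb1 all rose with the block, by 1.03 to 1.34 on the log2 scale, and their sum was 2695 to 13132 in SCG, 3750.2 to 13659.6 in SCG+MEF and 10424 to 18898 in SCG+PSC. The 5 endothelial markers summed to 1167 to 1789, 1789 to 2036 and 1821 to 2678 in the same order, with none past the threshold. Of 8 fibroblast markers Lum and Fbln1 rose with the block. In SCG+MEF against SCG the fibroblast markers Dcn and Lum rose with the block, by 0.74 and 1.29. Of 7 glial markers only Fabp7 was called with the block, lower at -0.50, while 5 of the 7 had log2 fold changes above 0 (median 0.05). Between the cocultures all 4 proliferation markers were higher in SCG+PSC with the block, by 0.92 to 1.08, as was Fabp7, by 0.56, and Lum was lower, at -0.64. In that contrast 3 of the 7 glial markers had log2 fold changes above 0 (median -0.04). The part of these cells in the protease results was not tested.

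The direct comparison of the cocultures had no member past the threshold without the block, against 0.0% of genes, and limma gave 4 members an unadjusted p under 0.05, against 3.07%. On recovered reads without the block edgeR called 0 members, against 0.0% of genes, and DESeq2 0, against 0.113%. With the block Adamts14 was higher in SCG+PSC (0.955% of genes were) and Adamtsl1 lower (0.182%). Groups were apart upward in 3 members (Adamts4, Adamts14 and Mmp12), against 3.33% of genes, and downward in 1 (Adamtsl1), against 3.68%. The median was 0.08 for the members and -0.02 for all genes.

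Adamtsl1 was at 1136, 1013 and 1118 in SCG, 1366, 1128 and 1608 in SCG+MEF, and 1024, 647, 763 and 757 in SCG+PSC. It was higher than its same-numbered control in every SCG+MEF library, as 17.4% of genes were, and lower in SCG+PSC replicates 1 to 3, as 14.9% were. Neither difference from SCG passed, at 0.31 ± 0.18 (limma adjusted p = 0.556 with the block) and -0.45 ± 0.18 (limma adjusted p = 0.114 with the block). Between the cocultures the difference was -0.76 ± 0.18 (limma adjusted p = 1, and 0.0219 with the block). That blocked call was lost without replicate 1 (limma adjusted p = 0.0861) and without replicate 3 (limma adjusted p = 0.145). In mPSC1 cells, on the other side of the insert, the same gene rose with the block. Adamts15, a versican and aggrecan protease, was at 414, 405 and 367 in SCG, 724, 512 and 649.7 in SCG+MEF, and 515, 432, 388 and 415 in SCG+PSC. SCG+MEF lay above SCG in each library, at 0.65 ± 0.17 (limma adjusted p = 0.0782 with the block). Blocked DESeq2 called it higher (adjusted p = 0.00212), as did blocked limma without replicate 2 (adjusted p = 0.0453), and the cocultures differed by -0.49 ± 0.17 (limma adjusted p = 0.0986 with the block).

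The other ADAMTS genes with large values did not pass in limma with or without the block. Adamts1, an aggrecanase and versicanase, was at 8309.6 to 13123 in SCG, 6350.4 to 8742 in SCG+MEF and 7226 to 11741 in SCG+PSC replicates 1 to 3, and was at -0.45 ± 0.22 in SCG+MEF against SCG (limma adjusted p = 0.064 with the block). Adamts4 was at -0.35 ± 0.14 there (limma adjusted p = 0.337 with the block). Adamts7, a protease of cartilage oligomeric matrix protein, was at 0.47 ± 0.27 in SCG+PSC against SCG+MEF (limma adjusted p = 0.114 with the block). Adamts20 was at 13.3 to 67.4 in the 9 libraries of the fit and at 1.05 ± 0.59 in SCG+PSC against SCG (limma adjusted p = 0.26 with the block). Mmp13 and Mmp25, a membrane-type MMP of leukocytes, were at 0.78 ± 0.44 and 0.57 ± 0.48 in the same comparison, with limma adjusted p of 0.431 and 0.715 with the block. Mmp14 and Mmp2, the members with the highest levels, were at 0.13 ± 0.15 and -0.09 ± 0.21.

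The genes of the chromosome 9 run did not all change together. In mPSC1 cells Mmp3, Mmp10 and Mmp13 rose with the block, whereas in SCG+PSC explants Mmp8 and Mmp12 did, and Mmp3 was at 0.11 ± 0.49 and Mmp10 at -0.21 ± 0.65. In explants Mmp3 stood at 14.3 to 54.5 normalized counts and Mmp10 at 9.22 to 47.6 over the 10 libraries.

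**Figure D5:**
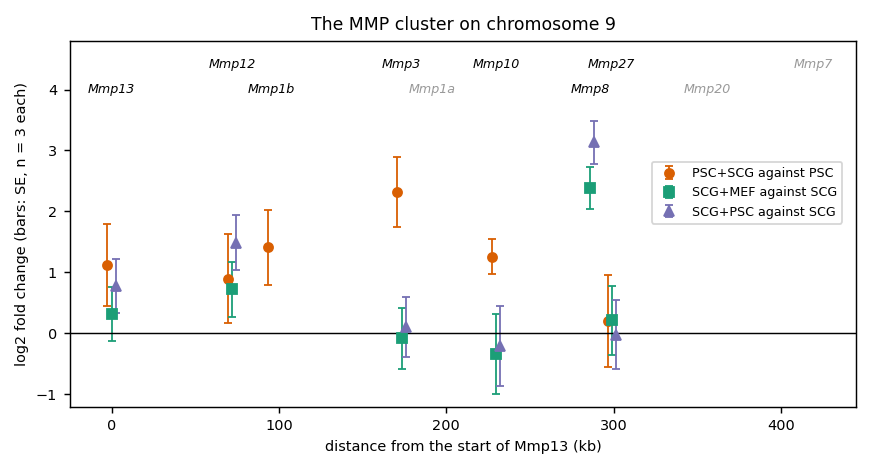
Log2 fold change with standard error (y axis, n = 3 each, fit without the block) of the MMP genes of the chromosome 9 run against distance from the start of Mmp13 in kb (x axis), for 3 comparisons; names in grey had too few reads to be tested. Mmp3 lies highest in the PSC comparison, at 2.31, and Mmp8, tested only in the explants, lies highest there, at 3.13 in SCG+PSC.

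The TIMPs did not pass limma's threshold in the explants with or without the block. Timp1 was at 2693, 5489 and 3967 in SCG, 2091, 3951 and 1829 in SCG+MEF, and 2763, 4433, 3332 and 2999.7 in SCG+PSC. It was lower in each SCG+MEF library than in its same-numbered control, at -0.65 ± 0.32 (limma adjusted p = 0.0985 with the block), and DESeq2 with the block called it lower (adjusted p = 0.000379). In SCG+PSC against SCG it was at -0.17, with a 95% interval from -0.46 to 0.11 with the block. Timp2, at 17542 to 21958, and Timp3, at 12212 to 21665, had log2 fold changes of -0.11 and -0.04 in SCG+PSC and -0.06 and -0.12 in SCG+MEF, each against SCG. Timp4 stood at 0 to 5.76 in the 10 libraries.

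Of 20 activators, inhibitors and receptors 19 were tested in the explants. Plau, the urokinase gene, alone rose with the block in SCG+PSC against SCG, from 363, 713 and 508 to 831, 1025 and 1052 in replicates 1 to 3, at 0.92 ± 0.26 (limma adjusted p = 1 without the block and 0.00792 with it). None passed in SCG+MEF against SCG, where Plau was at 0.67 ± 0.26 (limma adjusted p = 0.0922 with the block). Of the 14 substrates, all tested, 0 passed in either comparison with or without the block, with medians of 0.23 in SCG+PSC and 0.07 in SCG+MEF against SCG.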

How the data were processed

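The authors aligned stranded TruSeq RNA-seq reads to GRCm39 with STAR 2.7.10b, counted them per gene on GENCODE M33 and divided each library by its DESeq2 1.38.3 size factor (R 4.2.2), per the labels and the study's methods. The deposited values are this signal, unfiltered normalized counts of all genes, in a PSC and a nerve table. Log2(normalized count + 1) of genes summing to at least 10 was tested here with limma 3.58.1 (R 4.3.3, empirical Bayes with trend), 2-sided, with Benjamini-Hochberg adjustment over all genes tested, in 1 fit for the mPSC1 libraries and 1 fit for the 9 nerve libraries numbered 1 to 3. Background percentages count protein-coding genes. SCG+PSC replicate 4 is not among the 9 nerve libraries the study shows and entered as an alternative. The study's model held an experimental batch, given as dates, that the labels tie to no library. Same-numbered libraries deviated together (r = 0.454 to 0.697 over 3 PSC pairs and 0.255 to 0.588 over 9 nerve pairs), so the number was taken to pair them and entered as a block. Differently numbered libraries of different groups were at r = -0.528 to 0.241 in the PSC table and -0.423 to 0.0132 in the nerve table. The 0.241 was PSC replicate 1 with PSC+SCG replicate 2. In each of the 16 libraries 100% of values were whole multiples (tolerance 0.01) of the smallest, taken as 1 read. PSC+SCG replicate 1 and SCG+PSC replicate 4 did not pass a second check of the recovered reads and were not used as reads. On the reads of the 9 nerve libraries edgeR 4.0.16 and DESeq2 1.42.0 were run, and no count test was run on the PSC table. The limma fit without the block was first tested on simulated data that held no replicate effect. The blocked fit was not tested in this way. Other alternatives were pseudocounts of 0.5 and 8, a stricter filter (at least 10 in 3 libraries), no filter, quantile normalization, adjusted p alone, 2 groups only and leaving out each library. Blocked count tests and blocked fits without a replicate number were added after seeing the data. Named with values are all TIMPs, the 5 members highest per kb in each table, those past the threshold, the 8 largest fold changes of each comparison at a mean of at least 20, and those past the threshold with the block in mPSC1 cells. Members, lists and tests were chosen with earlier results of these data known. Coordinates, lengths and promoters come from GENCODE M39 on GRCm39. Intervals of fold changes are from limma, and limits on zeros cover counting error only.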

Additional observations from a re-analysis of the deposited data

Results flagged for a closer look

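Mmp12 in SCG+PSC replicate 4 stood at 2366 normalized counts, apart from the other 3 libraries of its group at 1741 to 1835. The gap was 0.849 of the range of the 4 libraries, more than Dixon's 95% critical value for 4 samples. Chance flags about 1 in 20 groups, and 24 members were tested in this way. That library was not in the tests above, and with it the log2 fold change of Mmp12 in SCG+PSC against SCG was 1.59 (limma adjusted p = 0.639).

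Adamtsl1 was higher than SCG in 3 of 3 SCG+MEF pairs, as 17.4% of genes were, and lower in 3 of 3 SCG+PSC pairs, as 14.9% were, and neither difference from SCG passed with or without the block. The direct contrast of the cocultures was -0.76 on the log2 scale (limma adjusted p = 0.0219 with the replicate block and 1 without it).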

How the results depend on the processing

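Limits come from 3 libraries a group and from calls that mostly need the replicate block. Of 1015 values of named genes under the alternatives, 992 kept their direction and 23 did not. The cause of the changes below was not tested.

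With the replicate block the members past the threshold went from 0 to 5 in cocultured mPSC1 cells, from 1 to 5 in SCG+PSC and from 0 to 1 in SCG+MEF, each against SCG, and from 0 to 2 between the cocultures. Blocked edgeR and DESeq2 gave 5 and 5, 1 and 3, and 2 and 2 for the 3 nerve comparisons. Of 15960 protein-coding genes they called 293 and 359, 26 and 70, and 174 and 272 higher. Lower were 30 and 56, 10 and 35, and 32 and 93. Blocked fits without 1 replicate number gave 1 to 5 (1, 4 and 5), 2 to 5 (2, 3 and 5), 0 to 2 and 0 to 1 in the same order of comparisons. All genes called moved as well. Without numbers 1, 2 and 3 they were 10, 46 and 6 higher and 4, 7 and 0 lower in SCG+MEF. Between the cocultures they were 2, 216 and 3 higher and 0, 57 and 0 lower. Those of the other comparisons are given above. Without the block DESeq2 called 2 in SCG+PSC and 1 in SCG+MEF against SCG, and 2 groups alone gave 0. Of all genes, that DESeq2 fit called 49 and 18 higher and 6 and 3 lower. Leaving out 1 library called 0 in mPSC1 cells and 0 to 1 in SCG+PSC against SCG. It moved the members' median between 0.0309 and 0.333 in mPSC1 cells (0.333 without PSC+SCG replicate 3), between -0.0110 and 0.0878 in SCG+PSC and between -0.0565 and 0.113 in SCG+MEF against SCG.

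Signs turned as follows. Timp2 in mPSC1 cells was -0.000825 after quantile normalization, and Timp4 between the cocultures was 0.0455 by edgeR and 0.0308 by DESeq2. Without 1 library Timp1 spanned -0.316 to 0.0606 in mPSC1 cells and -0.439 to 0.0748 in SCG+PSC against SCG. Timp3 spanned -0.201 to 0.0878 in SCG+PSC and -0.286 to 0.113 in SCG+MEF against SCG, and -0.151 to 0.248 between the cocultures. Timp2 spanned -0.120 to 0.0153 in SCG+MEF against SCG and -0.124 to 0.0113 between the cocultures, Timp4 -0.68 to 0.26 between the cocultures, and Adamts20 -0.25 to 0.87 in SCG+MEF against SCG. In blocked fits without a number Timp1 was 0.0321 in mPSC1 cells (number 2 left out), Timp3 0.0308 (2) and Mmp25 -0.0264 (3, against 0.57 with all numbers) in SCG+PSC against SCG, and Timp3 -0.0911 (1) and Timp4 0.448 (3) between the cocultures.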
